A study of Mus musculus with 12 samples.

Results

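The proteasome genes were the 51 of 25553 genes in the table whose symbol begins with Psma, Psmb, Psmc, Psmd, Psme, Psmf or Psmg and a number, and no pseudogene symbol had to be left out. Their messenger RNA was followed in whole kidneys of wild-type mice in 4 groups of 3 mice each. Normoxic sham mice had a sham operation and stayed in room air beforehand. Normoxic RIRI mice had renal ischemia-reperfusion injury (RIRI), in which both renal pedicles were clamped through the abdomen for 45 min and the kidney was collected 12 h after blood flow returned. Preconditioned sham and preconditioned RIRI mice had the same operations after hypoxic preconditioning in a normobaric chamber. The chamber was brought from room air to 8% oxygen over 20 min and held there on 3 days in a row, first for 2 h, then for 4 h and last for 8 h. All 12 libraries carry 1 batch number in the labels, which give neither sex, strain nor age. The series set out to learn how preconditioning protects the kidney from this injury.

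The proteasome is the main machine that degrades proteins tagged with ubiquitin. Its barrel-shaped 20S core has outer rings of alpha subunits, which form the gate, and inner rings of beta subunits, which carry the cutting sites. A 19S particle caps the barrel, with a base of ATPases that unfold the substrate and a lid that removes ubiquitin, while dedicated chaperones assemble the parts. Immune signals such as interferon gamma exchange the cutting beta subunits for immunoproteasome versions and induce the 11S activator, which favours peptides for display to T cells. In the kidney, as in other tissues, the proteasome also destroys the inhibitor of NF-kB and so takes part in inflammatory signalling.

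Expression was given as FPKM, fragments scaled by transcript length and library depth. Levels of different genes therefore also depend on the length used for each, which was not given. Each library held 32928967 to 35501261 recovered reads. The tested members had 69 to 14181 reads in a library with a median of 3452. Of the 51 members, 49 had FPKM of at least 1 in all 12 libraries and were tested. They ranged from 1.36 to 335. The other two were Psma8, an alpha subunit of the testis, and Psmb11, the cutting subunit of the thymus. Psma8 was above 0 in 10 libraries and Psmb11 in 3, and neither exceeded an FPKM of 0.0402. By function, 49 members are subunits, assembly factors, activators or an inhibitor, and Psmc3ip and Psme3ip1 match by symbol only. Differences below are log2 changes of FPKM + 1 with their standard error (SE), from limma over all 12357 genes tested, and called means a Benjamini-Hochberg adjusted p under 0.05. The 9 tubule markers were detected in every library, with summed FPKM of 4528 to 4759.7 in normoxic sham and 2209 to 2607.5 in normoxic RIRI kidneys, then 4998 to 5074 in preconditioned sham and 2864 to 3559.6 in preconditioned RIRI kidneys. With normoxic injury 7 of the 9 markers were called lower and 0 higher, against 30.1% and 41.6% of all genes. Their log2 changes ran from -3.92 for Slc12a1 to -0.16 for Umod. In preconditioned against normoxic RIRI kidneys 6 were higher and 0 lower, against 24.7% and 17.4% of all genes. Those changes ran from -0.01 for Slc5a2 to 2.31 for Slc12a1. In whole kidney RNA, fewer cells of a type and less RNA per cell cannot be told apart.

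Ischemia-reperfusion in normoxic mice asks what the injury did without preconditioning. Most of the proteasome rose: 38 of the 49 tested members were higher in normoxic RIRI than in normoxic sham kidneys, 2 were lower and 9 were not called. Among all genes tested, 41.6% were called higher and 30.1% lower, so the members' share of 77.6% stood beside a large background. The median log2 change was 0.44 over the members and 0.10 over all genes. All 17 genes of the 19S particle rose, with a median of 0.81 for the 11 without ATPase function and 0.50 for the 6 ATPases. In the 20S core, 11 of 14 constitutive genes rose, with a median of 0.50. On the log2(FPKM + 1) scale Psmd11, a lid subunit, was the only called member past 2-fold. Psmb9, a cutting subunit of the immunoproteasome, and Psmg1, an assembly chaperone, were the members that fell. The mean FPKM of Psmb9 was 5.26 in normoxic sham and 2.15 in normoxic RIRI kidneys, which is -0.99 on that scale. The replicates separated as well: in 39 members all 3 normoxic RIRI libraries lay above all 3 normoxic sham libraries, and in 3 they lay below, which held for 42.9% and 31.4% of all genes. Of the 40 calls, 32 were kept in every alternative tried. Psmc3, Psmd5, Psmd6, Psmd13, Psme1, Psmf1, Psmg1 and Psmg4 lost theirs in at least 1.

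In the preconditioned mice, injury gave a similar list. There 36 members were higher in preconditioned RIRI than in preconditioned sham kidneys and 0 were lower, against 33.0% and 19.4% of all genes. Of the 36 calls, 28 were kept in every alternative tried. Psma2, Psma4, Psmb1, Psmb10, Psmc6, Psmd5, Psmd6 and Psme2 lost theirs in at least 1. By the replicate spread alone 41 members had no overlap upward and 0 downward, where 40.2% and 23.1% of all genes did. Psmb9 had the only sizable negative change, -0.46 ± 0.18 (adjusted p = 0.0524), and it was called lower under median-ratio rescaling (0.0223), under quantile normalization (0.0156), with the replicate number as a block (0.0252) and without preconditioned sham replicate 2 (0.0111) or normoxic RIRI replicate 1 (0.0452) or 2 (0.0419). The median change was 0.41, against 0.10 for all genes. The injury comparisons share no library, and 33 members were called higher in both, which is 86.8% of the 38 and 91.7% of the 36. Of all genes, 41.6% were called higher in normoxic and 33.0% in preconditioned injury. Their overlap was not counted, so whether the members shared more calls than other genes was not tested. Psmc3, Psmd3, Psme1, Psme3ip1 and Psmf1 were called only in normoxic mice, and Psma4, Psmb1 and Psmb10 only in preconditioned mice. Of these, the interaction test below called only Psmd3.

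**Figure D1:**
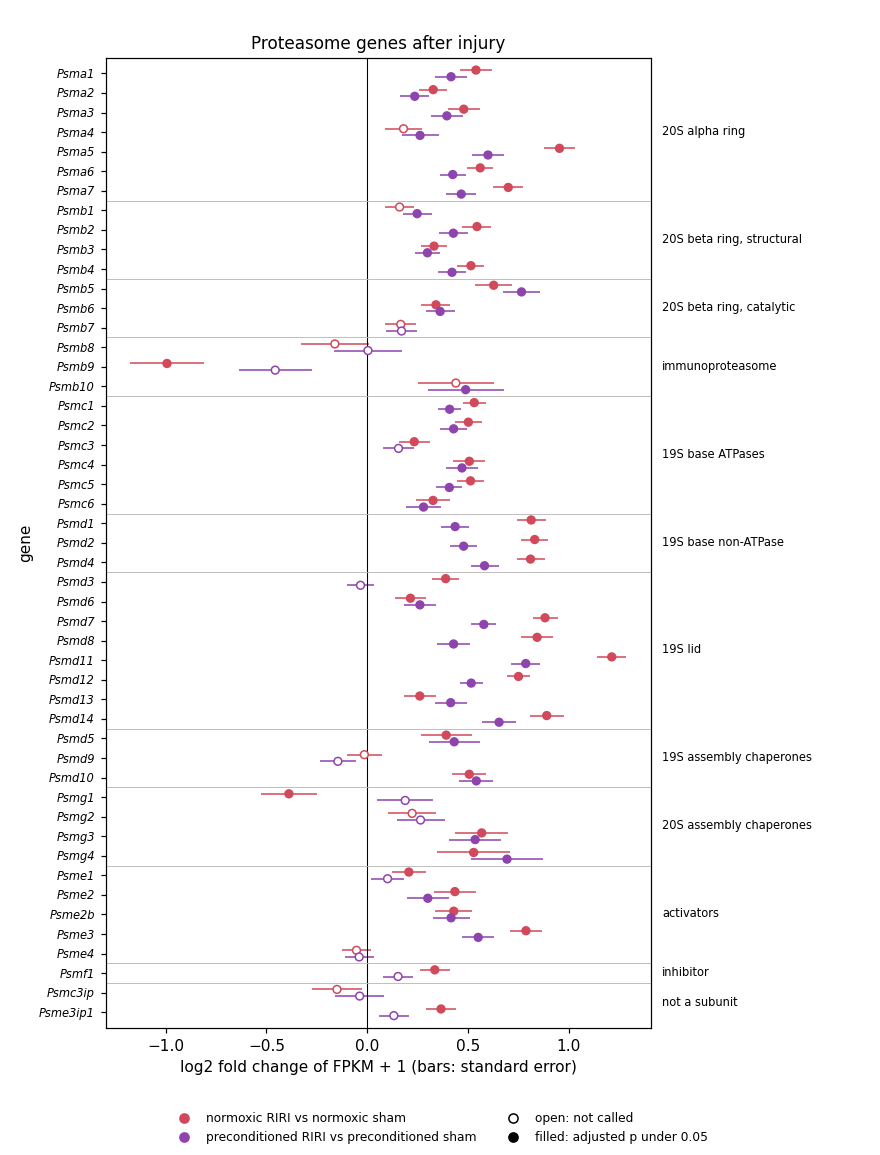
Log2 change of FPKM + 1 with injury (x axis) for each of the 49 tested proteasome genes (y axis, grouped by role), in normoxic mice (red) and in preconditioned mice (purple). Points are estimates, bars are standard errors, filled points were called at an adjusted p under 0.05, and most filled points lie to the right of 0, with Psmd11 farthest right at 1.21 and Psmb9 farthest left at -0.99.

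The injured groups were compared to ask what preconditioning changed once the kidney was injured. In preconditioned RIRI kidneys 13 members were lower than in normoxic RIRI kidneys and 4 were higher, against 17.4% lower and 24.7% higher among all genes. The lower members were Psmd1, Psmd2 and Psmd4 of the base, Psmd3, Psmd7, Psmd8, Psmd11, Psmd12 and Psmd14 of the lid, the ATPase Psmc2, the alpha subunits Psma5 and Psma7, and the activator Psme3. The higher members were Psmb8, Psmb9, Psmg1 and Psme1. Of the 11 non-ATPase genes of the 19S particle, 9 were lower, with a median of -0.32, while 2 of the 14 constitutive core genes were, with a median of -0.09, and 1 of the 6 ATPases. Under median-ratio rescaling these counts were 9 of 11, 7 of 14 and 5 of 6, and under quantile normalization 9, 4 and 1. The median over all members was -0.08 and over all genes 0.06. Without overlap between the groups were 17 members downward and 5 upward, against 19.9% and 27.8% of all genes.

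These calls moved with the scaling and the fit. Under median-ratio rescaling 23 members were lower and 2 higher, and under quantile normalization 16 and 4, while the share of called genes of the whole table that were higher went from 58.7% to 44.6% and 49.8%. In a fit of the RIRI groups alone, 6 were lower and 2 higher, and the shares of all genes called in that fit were not counted. Psmd1, Psmd2, Psmd7, Psmd8, Psmd11, Psmd14 and Psmg1 kept their call in every alternative. The count of higher members was 1 or 7 when replicate 2 or replicate 1 of normoxic RIRI was left out, and 2 when replicate 1 or replicate 2 of preconditioned RIRI was. Since this comparison and the injury comparisons use the same RIRI libraries, their values are set side by side below and no overlap between them is given.

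Preconditioning without injury gave small differences, from -0.16 for Psmd10 to 0.38 for Psmb10. Between preconditioned and normoxic sham kidneys 0 members were called in either direction by limma, where 0.186% of all genes were higher and 0.235% lower, and limma voom on recovered reads also called 0. At an unadjusted p under 0.05 there were 5 members, 10.2% of the 49, against 14% of all genes. They were Psme1, Psme2, Psmd3, Psme2b and Psmd9, of which Psme2b and Psmd9 are named after their values were seen. When only the sham groups were fitted, 3 members were called higher, namely Psme1 (adjusted p = 0.019), Psme2 and Psmb10 (both 0.0421). The share of all genes called in that fit was not counted, and the shares above belong to the fit of all 12 libraries. In 8 members the preconditioned sham libraries all lay above the normoxic sham libraries and in 1 below, as in 23.0% and 6.36% of all genes. The split of all called genes, 44.2% higher, became 21.5% under median-ratio rescaling and 25% under quantile normalization.

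**Figure D2:**
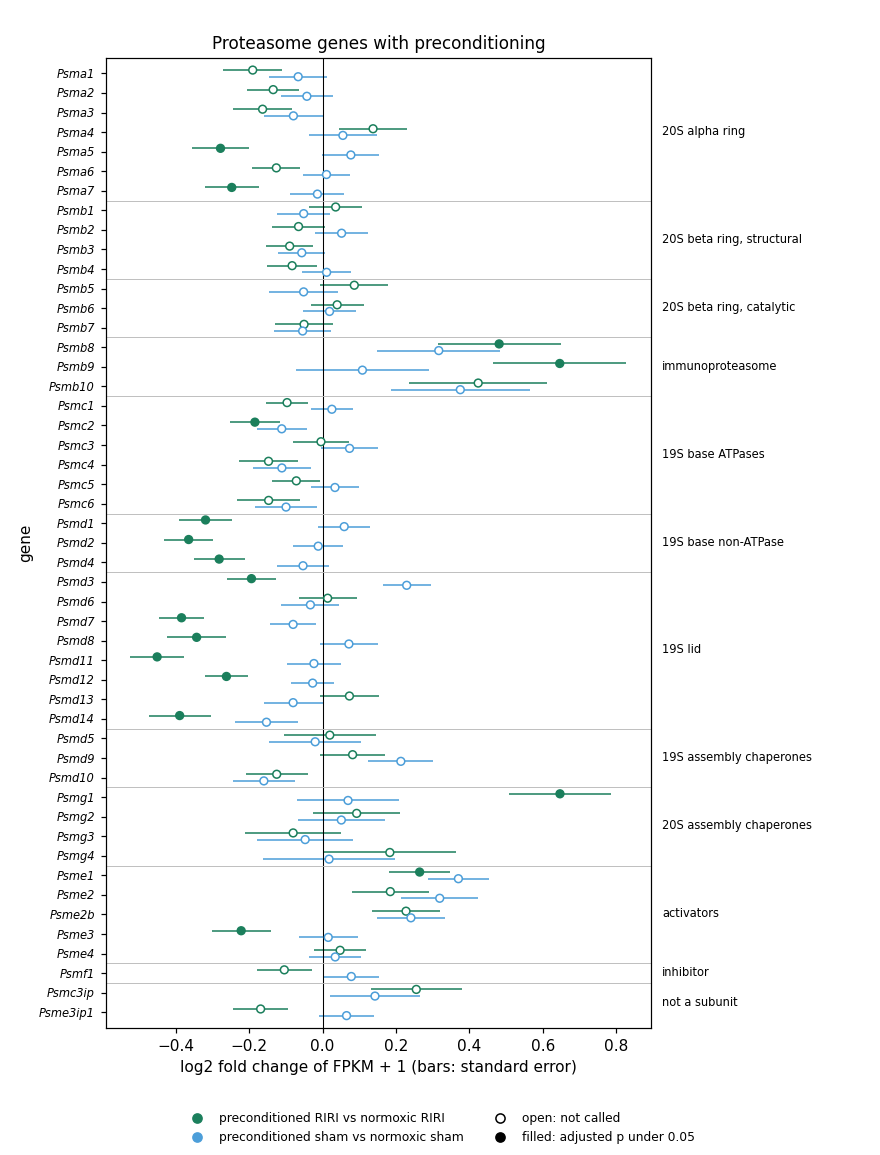
Log2 change of FPKM + 1 (x axis) of the same 49 genes (y axis, grouped by role) between preconditioned RIRI and normoxic RIRI kidneys (green) and between preconditioned sham and normoxic sham kidneys (blue). Bars are standard errors, filled points were called at an adjusted p under 0.05, and the 13 filled green points left of 0 are mostly genes of the 19S base and lid.

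Whether the injury change itself differed with preconditioning was tested by the interaction, the injury change of preconditioned mice less the injury change of normoxic mice. It called 7 members lower (14.3%) and 0 higher, against 12.6% and 11.3% of all genes. The 7 were Psmd3, Psmd11, Psmd1, Psmd2, Psmd8, Psmd7 and Psma5, so 6 of them belong to the non-ATPase genes of the 19S particle. In 32 of the 49 members the injury change was smaller or more negative in preconditioned mice, with a median interaction of -0.08, against -0.00 for all genes. Of the 0 higher, Psmg1 came closest, at 0.58 ± 0.20 (adjusted p = 0.0511), and 12 members in all (24.5%) had an unadjusted p under 0.05, against 38% of all genes. Psmg1 was called by limma voom (adjusted p = 0.0445) and under both rescalings. Psmd3 and Psmd11 kept their call in every alternative. The count of 7 fell to 3 without preconditioned sham replicate 1 and to 3 without normoxic sham replicate 1.

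The alpha ring, encoded by Psma1 to Psma7, spanned 4.52-fold in normoxic sham kidneys, from Psma3 at 25.4 ± 1.18 to Psma2 at 115 ± 2.06 FPKM (SD, n = 3). Their reads were closer, with medians over the libraries of 3228.5 for Psma3 and 3922 for Psma2. Summed over the 7 genes, the level was 509.6 ± 22.2 FPKM in normoxic sham and 722 ± 32.4 in normoxic RIRI kidneys, then 508 ± 11.8 in preconditioned sham and 661 ± 43.1 in preconditioned RIRI kidneys. Psma5 had the largest increase, and its FPKM values were 45.1, 44.04 and 49.7 in normoxic sham and 96.5, 82.7 and 93.2 in normoxic RIRI kidneys, then 49.9, 49.5 and 47.1 in preconditioned sham and 73.3, 79.4 and 71.1 in preconditioned RIRI kidneys. Both injured groups lay above both sham groups without overlap, and the preconditioned RIRI libraries lay below the normoxic RIRI libraries. Psma5 rose by 0.96 ± 0.08 (adjusted p = 5.33e-07) in normoxic and by 0.60 ± 0.08 (adjusted p = 7.18e-05) in preconditioned mice. The injured groups differed by -0.28 ± 0.08 (adjusted p = 0.0141), a call lost when only these groups were fitted (0.0717). Its interaction of -0.36 ± 0.11 had an adjusted p of 0.0368, which rose to between 0.0534 and 0.0874 without filter, with the replicate number as a block or without any of 9 single libraries. Psma1, Psma2, Psma3, Psma6 and Psma7 rose in normoxic injury by 0.33 to 0.70. Psma4 did not pass the test there, at 0.18 ± 0.09 (adjusted p = 0.0965).

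Of the structural beta subunits Psmb1 to Psmb4, which line the inner rings without cutting, 3 of 4 rose in normoxic and 4 of 4 in preconditioned injury. Psmb2 rose most, with FPKM values of 70.9, 71.6 and 71.8 in normoxic sham and 109, 95.1 and 111 in normoxic RIRI kidneys, then 78.6, 73.95 and 70.01 in preconditioned sham and 103, 98.1 and 98.8 in preconditioned RIRI kidneys. The injured groups lay well above the sham groups and overlapped each other. Psmb2 rose by 0.55 ± 0.07 (adjusted p = 2.86e-05) in normoxic and by 0.43 ± 0.07 (adjusted p = 4.30e-04) in preconditioned mice, and the injured groups differed by -0.07 ± 0.07 (adjusted p = 0.49). Psmb1 did not pass the test in normoxic injury, at 0.16 ± 0.07 (adjusted p = 0.0634). It was called under quantile normalization, at 0.24 (0.00779), and without preconditioned RIRI replicate 2 (0.042) or normoxic sham replicate 3 (0.0424). Its call in preconditioned injury was lost under median-ratio rescaling (0.132) and without preconditioned sham replicate 3 (0.054).

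Of the constitutive cutting subunits, Psmb5 had the highest mean of all members in every group. It carries the chymotrypsin-like site, the target of proteasome inhibitor drugs, and had FPKM values of 190.1, 198 and 185 in normoxic sham and 332, 266 and 293 in normoxic RIRI kidneys, then 177, 204 and 173 in preconditioned sham and 292, 335 and 317 in preconditioned RIRI kidneys. Every injured kidney was higher than every sham kidney, and the injured groups overlapped. Psmb5 rose by 0.63 ± 0.09 (adjusted p = 7.28e-05) in normoxic and by 0.77 ± 0.09 (adjusted p = 4.43e-05) in preconditioned mice, and the injured groups differed by 0.09 ± 0.09 (adjusted p = 0.481).

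Psmb6 carries the caspase-like site, and its FPKM values were 109, 115 and 114 in normoxic sham and 150.1, 136 and 143 in normoxic RIRI kidneys, then 109, 120.3 and 114 in preconditioned sham and 137, 159 and 145 in preconditioned RIRI kidneys. Again only the sham and injured groups separated. Its increase was 0.34 ± 0.07 (adjusted p = 0.00111) in normoxic and 0.36 ± 0.07 (adjusted p = 0.00135) in preconditioned mice. Psmb7, with the trypsin-like site, had FPKM values of 155, 154 and 156 in normoxic sham and 182, 169 and 172 in normoxic RIRI kidneys, then 151, 155 and 142 in preconditioned sham and 172, 185 and 149 in preconditioned RIRI kidneys. Normoxic RIRI libraries lay above the normoxic sham libraries, while the preconditioned groups overlapped. The changes of Psmb7 with injury, 0.17 ± 0.08 (adjusted p = 0.0744) and 0.17 ± 0.08 (adjusted p = 0.087), did not pass the test. Both were called under quantile normalization, at 0.28 (0.00372) and 0.27 (0.00719), and when replicate 3 of preconditioned RIRI was left out (0.0324 and 0.0123), as was the normoxic change without replicate 2 of that group (0.0473).

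The 6 ATPases of the 19S base, Psmc1 to Psmc6, unfold substrates and feed them into the core. All 6 rose in normoxic injury, by 0.23 to 0.53, and 5 of 6 in preconditioned injury, Psmc3 being the exception at 0.16 ± 0.08 (adjusted p = 0.109). The normoxic call of Psmc3 was lost under median-ratio rescaling (0.0776) and when normoxic RIRI replicate 3 (0.0689) or normoxic sham replicate 1 (0.0589) was left out. The preconditioned call of Psmc6 was lost in 5 alternatives, with adjusted p from 0.0593 to 0.1. Psmc1 rose most, with FPKM values of 75.2, 75.97 and 74.7 in normoxic sham and 107, 110 and 111 in normoxic RIRI kidneys, then 79.04, 73.7 and 77.3 in preconditioned sham and 100.3, 107 and 99.3 in preconditioned RIRI kidneys. Its libraries were tight within each group and the injured groups met at 107 FPKM. Psmc1 rose by 0.53 ± 0.06 (adjusted p = 6.02e-06) in normoxic and by 0.41 ± 0.06 (adjusted p = 1.32e-04) in preconditioned mice. Between the injured groups it differed by -0.10 ± 0.06 (adjusted p =  0.2), which median-ratio rescaling turned into a call of -0.19 (0.0282). Psmc2 alone was called there in the whole fit, at -0.18 ± 0.07 (adjusted p = 0.0468), and lost the call in 13 alternatives.

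The non-ATPase subunits of the base, Psmd1 and Psmd2, are scaffolds that dock ubiquitin-carrying shuttle proteins, and Psmd4 is a ubiquitin receptor. All 3 rose in both injury comparisons and were lower in preconditioned than in normoxic RIRI kidneys. Psmd2 had FPKM values of 69.1, 67.98 and 62.98 in normoxic sham and 126, 117 and 116 in normoxic RIRI kidneys, then 69.8, 66.7 and 61.97 in preconditioned sham and 92.4, 93.7 and 91.3 in preconditioned RIRI kidneys. The injured groups did not overlap each other or the sham groups, and the preconditioned RIRI libraries lay within 3 FPKM of one another. Psmd2 rose by 0.83 ± 0.07 (adjusted p = 5.11e-07) in normoxic and by 0.48 ± 0.07 (adjusted p = 1.26e-04) in preconditioned mice. Between the injured groups the change was -0.36 ± 0.07 (adjusted p = 0.00148).

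Psmd1 had FPKM values of 36.8, 39.2 and 37.99 in normoxic sham and 68.8, 70.3 and 63.6 in normoxic RIRI kidneys, then 41.04, 39.02 and 38.7 in preconditioned sham and 55.02, 57.5 and 49.6 in preconditioned RIRI kidneys. Here too the 4 groups fell into sham, preconditioned RIRI and normoxic RIRI levels without overlap. Psmd1 rose by 0.81 ± 0.07 (adjusted p = 9.53e-07) in normoxic and by 0.44 ± 0.07 (adjusted p = 3.44e-04) in preconditioned mice, and between the injured groups it changed by -0.32 ± 0.07 (adjusted p = 0.00436). The interaction was -0.38 ± 0.10 (adjusted p = 0.0199), and passed 0.05 without preconditioned sham replicate 1 (0.0544) and without normoxic sham replicate 1 (0.0526). For Psmd2 the interaction was -0.35 ± 0.10 (adjusted p = 0.0211), and passed 0.05 without preconditioned sham replicate 1 (0.0592) and without normoxic sham replicate 3 (0.0561). Psmd4 had means of 84.8 ± 2.38, 149.5 ± 2.99, 81.7 ± 3.19 and 123 ± 10.03 FPKM (SD, n = 3) in the same group order, and its interaction of -0.23 ± 0.10 was not called (adjusted p = 0.111). Its call between the injured groups was lost when these were fitted alone (0.0609).

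Psmd11, in the lid, had the largest log2 increase of the members tested in normoxic injury. The 8 lid genes summed to 445 ± 3.50 FPKM in normoxic sham and 705 ± 18.97 in normoxic RIRI kidneys, then 452 ± 7.37 in preconditioned sham and 594 ± 16.4 in preconditioned RIRI kidneys (SD, n = 3). Psmd11, whose product fastens the lid to the core and whose level limits assembly of capped proteasomes in some cells, lies at chr11:80428615-80473248 on mm10. Its FPKM values were 30.3, 28.8 and 29.7 in normoxic sham and 68.8, 73.8 and 67.6 in normoxic RIRI kidneys, then 32.1, 28.9 and 26.6 in preconditioned sham and 51.7, 50.7 and 50.4 in preconditioned RIRI kidneys. It was the lowest lid gene by FPKM in sham kidneys, and the injured groups separated from the sham groups and from each other. Psmd11 rose by 1.21 ± 0.07 (adjusted p = 5.35e-08) in normoxic and by 0.79 ± 0.07 (adjusted p = 6.32e-06) in preconditioned mice. The injured groups differed by -0.45 ± 0.07 (adjusted p = 6.73e-04), and the interaction was -0.43 ± 0.10 (adjusted p = 0.0128).

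Psmd3 followed another pattern, with FPKM values of 86.8, 84.5 and 81.1 in normoxic sham and 111, 118 and 104 in normoxic RIRI kidneys, then 95.8, 102 and 98.5 in preconditioned sham and 92.96, 99.3 and 97.3 in preconditioned RIRI kidneys. Preconditioned sham libraries lay above normoxic sham libraries and level with preconditioned RIRI libraries, and normoxic RIRI libraries were highest. Psmd3 rose by 0.39 ± 0.07 (adjusted p = 1.99e-04) in normoxic mice and had a change of -0.03 ± 0.07 (adjusted p = 0.694) in preconditioned mice. The sham groups differed by 0.23 ± 0.07 (adjusted p = 0.17), which was not called. Its interaction of -0.42 ± 0.09 (adjusted p = 0.0083) had the smallest adjusted p of the members. The difference between injured groups, -0.19 ± 0.07 (adjusted p = 0.0329), lost its call when these groups were fitted alone (0.145) and without normoxic RIRI replicate 1 (0.056) or 2 (0.0932) or preconditioned RIRI replicate 1 (0.0977) or 3 (0.059).

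Sorted by these same values, the other lid genes fell into a pair of sets. Psmd14, the enzyme that cuts ubiquitin chains from substrates, and its partner Psmd7 rose in normoxic injury by 0.89 ± 0.08 (adjusted p = 1.84e-06) and 0.88 ± 0.06 (adjusted p = 1.68e-07). Psmd8 rose by 0.84 ± 0.08 (adjusted p = 1.82e-06) and Psmd12 by 0.75 ± 0.06 (adjusted p = 3.40e-07). These 4 were lower in preconditioned than in normoxic RIRI kidneys, with log2 differences of -0.39, -0.38, -0.34 and -0.26. Both comparisons use the same normoxic RIRI libraries, so the rise and the later difference are not independent. The latter call of Psmd12 was lost when the RIRI groups were fitted alone (0.0508). Psmd6 and Psmd13 rose less, by 0.21 ± 0.08 (adjusted p = 0.0274) and 0.26 ± 0.08 (adjusted p = 0.0113), and the injured groups differed by 0.01 and 0.07, neither called. Median-ratio rescaling ended both normoxic injury calls, with adjusted p of 0.179 for Psmd6 and 0.0596 for Psmd13. Psmd6 also lost its call with only the groups compared (0.0573). The same happened when replicate 1 (0.0733) or 3 (0.0768) of normoxic RIRI or replicate 1 (0.0631) or 2 (0.12) of normoxic sham was left out. The mean FPKM of the lid genes over the mean of the ATPase genes was 0.782 ± 0.0044 in normoxic sham and 0.915 ± 0.055 in normoxic RIRI kidneys, then 0.80 ± 0.019 in preconditioned sham and 0.823 ± 0.027 in preconditioned RIRI kidneys (SD, n = 3). This ratio does not depend on the scaling of a library, and its normoxic RIRI values of 0.863 to 0.972 lay above those of every other group.

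**Figure D3:**
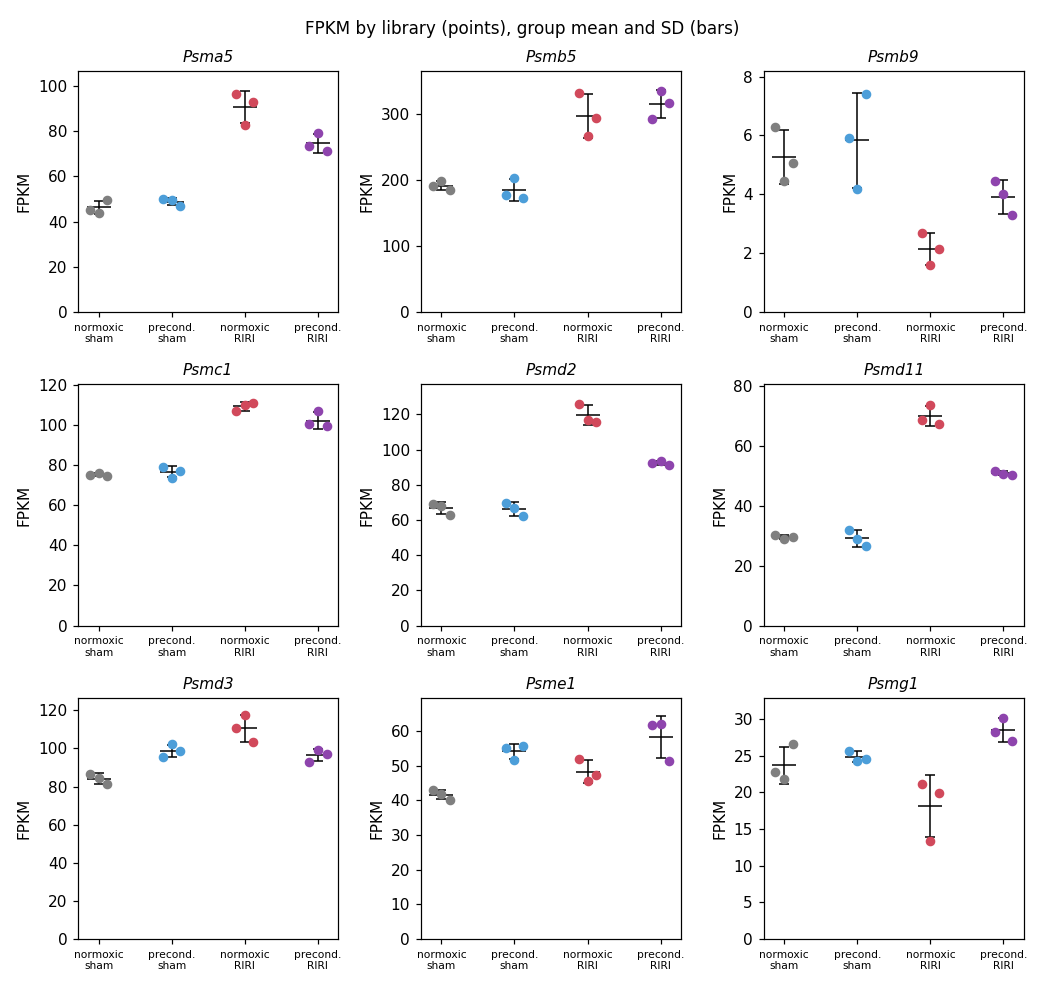
FPKM (y axes, from 0) of 9 proteasome genes in each library (points) of the 4 groups (x axes), with the mean and SD of 3 mice as bars. Psma5, Psmd2 and Psmd11 step down from normoxic RIRI to preconditioned RIRI without overlap, Psmb5 and Psmc1 overlap between the injured groups, and Psmb9 and Psmg1 are lowest in normoxic RIRI.

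Promoter sequence was compared because Nfe2l1 and Nfe2l2, the transcription factors known to induce proteasome genes under stress, bind antioxidant response elements. RefSeq windows of 250 bases before the gene start on GRCm38.p6, the assembly behind mm10, were matched for 43 of the 51 members. The core letters TGACNNNGC, searched on both strands, were in windows of 5 of the 43 members (11.6%) and of 11.5% of all 27025 genes with a window. The 5 were Psmb5, Psmb6, Psmc6, Psmd9 and Psmd12. The CCAAT box was in windows of 16 members (37.2%), against 37.5% of all genes. Both shares were therefore close to those of any gene. The windows of 3 genes are shown 5′ to 3′ along the gene, with matches to TGACNNNGC in capitals. They are those of the member that rose most, which has no match, of a lid gene with a match on the opposite strand 247 bases before the start, and of the most abundant cutting subunit with a match 47 bases before the start. Psmd11 is chr11:80428365-80428614 (+ strand), Psmd12 is chr11:107479278-107479527 (+ strand) and Psmb5 is chr14:54617996-54618245 (- strand). A match describes letters only, and a window without one says only that these letters are not in it.
Psmd11: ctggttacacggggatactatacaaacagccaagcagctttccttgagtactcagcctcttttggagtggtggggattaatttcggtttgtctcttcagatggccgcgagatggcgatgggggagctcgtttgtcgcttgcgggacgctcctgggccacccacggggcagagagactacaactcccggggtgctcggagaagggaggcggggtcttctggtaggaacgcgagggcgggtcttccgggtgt
Psmd12: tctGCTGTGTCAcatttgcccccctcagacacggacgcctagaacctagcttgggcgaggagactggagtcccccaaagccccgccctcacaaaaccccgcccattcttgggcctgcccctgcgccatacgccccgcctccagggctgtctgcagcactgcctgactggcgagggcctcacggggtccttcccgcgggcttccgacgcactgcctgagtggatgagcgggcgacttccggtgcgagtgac
Psmb5: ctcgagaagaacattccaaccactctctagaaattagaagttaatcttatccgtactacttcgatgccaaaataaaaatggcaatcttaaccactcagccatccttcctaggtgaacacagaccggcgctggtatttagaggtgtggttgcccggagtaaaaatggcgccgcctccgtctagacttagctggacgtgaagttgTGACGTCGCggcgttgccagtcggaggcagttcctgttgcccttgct

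Assembly chaperones did not all move one way. Among the 19S chaperones, which hold the ATPases until the base is complete, Psmd10 (gankyrin) rose, with FPKM values of 17.5, 15.3 and 16.02 in normoxic sham and 25.4, 23.2 and 22.01 in normoxic RIRI kidneys, then 16.1, 14.2 and 13.2 in preconditioned sham and 21.4, 21.98 and 21.1 in preconditioned RIRI kidneys. Injured kidneys lay above sham kidneys with no overlap. It rose by 0.51 ± 0.08 (adjusted p = 1.85e-04) in normoxic and by 0.54 ± 0.08 (adjusted p = 2.51e-04) in preconditioned mice. Psmd5 rose by 0.39 ± 0.13 (adjusted p = 0.0142) in normoxic mice, although the groups overlapped. That call was lost under quantile normalization (0.0503) and when replicate 1 (0.0593) or 3 (0.0643) of normoxic RIRI was left out. Psmd9 did not pass the test, at -0.01 ± 0.09 (adjusted p = 0.896) in normoxic and -0.15 ± 0.09 (adjusted p = 0.188) in preconditioned mice. The latter was called lower under median-ratio rescaling, at -0.23 (0.0386), and quantile normalization, at -0.28 (0.0182).

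The 20S chaperones Psmg1 to Psmg4 work in pairs, Psmg1 with Psmg2 and Psmg3 with Psmg4, to build the alpha ring. Psmg3 had FPKM values of 13.4, 11.6 and 13.8 in normoxic sham and 22.9, 15.8 and 20.8 in normoxic RIRI kidneys, then 10.7, 13.9 and 13 in preconditioned sham and 19.1, 18.8 and 17.6 in preconditioned RIRI kidneys. Both injured groups were above the sham groups. Psmg3 rose by 0.57 ± 0.13 (adjusted p = 0.00196) in normoxic and by 0.54 ± 0.13 (adjusted p = 0.00473) in preconditioned mice, and Psmg4 by 0.53 ± 0.18 (adjusted p = 0.0196) and 0.69 ± 0.18 (adjusted p = 0.00684). The normoxic call of Psmg4 was lost under quantile normalization (0.0672) and when replicate 1 of normoxic RIRI (0.0757) or of normoxic sham (0.0578) was left out. Psmg1 went the other way in normoxic mice, with FPKM values of 22.8, 21.8 and 26.6 in normoxic sham and 21.1, 13.4 and 19.96 in normoxic RIRI kidneys, then 25.7, 24.3 and 24.6 in preconditioned sham and 28.3, 30.2 and 26.97 in preconditioned RIRI kidneys. Its normoxic RIRI libraries were the lowest, with replicate 2 far below the others, and its preconditioned RIRI libraries were the highest of the 12. Psmg1 fell by 0.39 ± 0.14 in normoxic injury (adjusted p = 0.0239). This decrease lost its call without filter (0.0526), with only the groups compared (0.0701) and without normoxic sham replicate 3 (0.0957). It also did without normoxic RIRI replicate 2, where the change was -0.19 (0.0665). Psmg1 was higher in preconditioned than in normoxic RIRI kidneys by 0.65 ± 0.14 (adjusted p = 0.00338). That call held in every alternative, with a value of 0.45 without normoxic RIRI replicate 2. In preconditioned mice its injury change was 0.19 ± 0.14 (adjusted p = 0.27). Psmg2 did not pass the test in either injury comparison, at 0.22 ± 0.12 (adjusted p = 0.111) and 0.27 ± 0.12 (adjusted p = 0.0811). The former was called without normoxic RIRI replicate 2, at 0.36 (0.00921). The latter was called with only the groups compared (0.015) and when replicate 1 (0.016) or 2 (0.0293) of normoxic RIRI was left out.

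Activators cap the core in place of the 19S particle. Psme1 and Psme2 together form the 11S activator and lie 5912 bases apart on chromosome 14. Psme1 had FPKM values of 42.9, 41.9 and 40.2 in normoxic sham and 52.1, 45.5 and 47.4 in normoxic RIRI kidneys, then 55.03, 51.7 and 55.7 in preconditioned sham and 61.8, 61.96 and 51.3 in preconditioned RIRI kidneys. Within both the sham and the injured kidneys the preconditioned mice had higher means, without overlap between the sham groups. Psme1 rose by 0.21 ± 0.08 (adjusted p = 0.0428) in normoxic injury and was higher in preconditioned than in normoxic RIRI kidneys by 0.26 ± 0.08 (adjusted p = 0.0252). The sham groups differed by 0.37 ± 0.08 (adjusted p = 0.098). The first call was lost in 13 alternatives, among them median-ratio rescaling (0.202) and the removal of any normoxic sham or preconditioned sham library, of normoxic RIRI replicate 1 (0.143) or of replicate 3 (0.0655). The second was lost under median-ratio rescaling (0.123), when the RIRI groups were fitted alone (0.108) and without preconditioned RIRI replicate 1 (0.0833) or 2 (0.0912) or normoxic RIRI replicate 2 (0.0759) or 3 (0.0651).

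Psme2 had FPKM values of 30.6, 32.8 and 33.5 in normoxic sham and 46.04, 38.9 and 47.5 in normoxic RIRI kidneys, then 37.8, 42.2 and 41.6 in preconditioned sham and 54.95, 53.5 and 42.8 in preconditioned RIRI kidneys. All other libraries lay above the normoxic sham libraries. Psme2 rose by 0.44 ± 0.10 (adjusted p = 0.00257) in normoxic and by 0.30 ± 0.10 (adjusted p = 0.0297) in preconditioned mice, and the second call was lost in 8 alternatives with adjusted p up to 0.114. The symbol Psme2b has 68.7% of its transcript 50-mers in common with Psme2, so how reads were divided between them is uncertain. Psme2b rose by 0.43 ± 0.09 (adjusted p = 0.00116) in normoxic injury. Psme3 forms a related activator of the nucleus and had FPKM values of 24.2, 24.96 and 24.01 in normoxic sham and 46.9, 40.3 and 41.6 in normoxic RIRI kidneys, then 25.9, 25.99 and 22.3 in preconditioned sham and 38.8, 34.9 and 36.4 in preconditioned RIRI kidneys. It stepped up with injury in both backgrounds, and its preconditioned RIRI libraries lay below its normoxic RIRI libraries. Psme3 rose by 0.79 ± 0.08 (adjusted p = 3.47e-06) in normoxic and by 0.55 ± 0.08 (adjusted p = 1.64e-04) in preconditioned mice, and the difference between the injured groups, -0.22 ± 0.08 (adjusted p = 0.0443), was lost in 12 alternatives with adjusted p up to 0.135.

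Psme4, a single-chain activator of the nucleus, had FPKM values of 19.8, 22.2 and 20.8 in normoxic sham and 21.3, 19.03 and 20.1 in normoxic RIRI kidneys, then 22.5, 20.5 and 21.3 in preconditioned sham and 21.7, 21.1 and 19.7 in preconditioned RIRI kidneys. All 4 groups overlapped. Its injury change was -0.05 ± 0.07 (adjusted p = 0.521) in normoxic and -0.04 ± 0.07 (adjusted p = 0.663) in preconditioned mice, and under quantile normalization the former was called lower, at -0.22 (0.0111). Psmf1, an inhibitor of the 20S core in the test tube, had FPKM values of 8.54, 8.44 and 7.85 in normoxic sham and 11.4, 11 and 9.75 in normoxic RIRI kidneys, then 8.82, 8.42 and 9.14 in preconditioned sham and 9.38, 9.73 and 10.6 in preconditioned RIRI kidneys. Normoxic RIRI libraries were above both sham groups. Psmf1 rose by 0.34 ± 0.08 (adjusted p = 0.0017) in normoxic injury, a call lost under quantile normalization (0.0603), and differed by 0.15 ± 0.08 (adjusted p = 0.108) in preconditioned mice without passing the test. Psme3ip1, a partner of Psme3, had FPKM values of 12.4, 12.01 and 13.2 in normoxic sham and 17.1, 14.98 and 17.4 in normoxic RIRI kidneys, then 13.4, 12.5 and 13.6 in preconditioned sham and 13.9, 14.5 and 15.3 in preconditioned RIRI kidneys. Normoxic RIRI libraries were above both sham groups, and Psme3ip1 rose by 0.37 ± 0.08 (adjusted p = 8.71e-04). Psmc3ip, a recombination cofactor of meiosis, had the lowest levels of the tested members and no call.

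The immunoproteasome genes stood at a small fraction of their constitutive partners, and none of the 3 that were tested was called higher in normoxic injury. Psmb9, which replaces Psmb6, had FPKM values of 6.27, 4.46 and 5.05 in normoxic sham and 2.70, 1.61 and 2.15 in normoxic RIRI kidneys, then 5.90, 4.19 and 7.40 in preconditioned sham and 4.45, 3.995 and 3.28 in preconditioned RIRI kidneys. Normoxic RIRI libraries were the lowest of all, and preconditioned RIRI libraries lay between them and the normoxic sham libraries, overlapping the lowest preconditioned sham value. Psmb9 fell by 0.99 ± 0.18 in normoxic injury (adjusted p = 3.74e-04) and was higher in preconditioned than in normoxic RIRI kidneys by 0.65 ± 0.18 (adjusted p = 0.0144). The latter call was lost without normoxic RIRI replicate 2, at 0.52 (0.0581).

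Psmb8, which replaces Psmb5, had FPKM values of 10.2, 10.8 and 10.7 in normoxic sham and 10.1, 7.94 and 10.1 in normoxic RIRI kidneys, then 13.2, 11.4 and 15.8 in preconditioned sham and 18.1, 12.7 and 10.4 in preconditioned RIRI kidneys. Normoxic RIRI libraries were the lowest, with a wide spread in both preconditioned groups. Its normoxic injury change was -0.16 ± 0.17 (adjusted p = 0.405), and it was higher in preconditioned than in normoxic RIRI kidneys by 0.48 ± 0.17 (adjusted p = 0.0374). That call was lost under median-ratio rescaling (0.0718), without filter (0.0897) and when the RIRI groups were fitted alone (0.0949). It was also lost without replicate 1 (0.133) or 2 (0.0645) of preconditioned RIRI or replicate 2 (0.129) or 3 (0.0529) of normoxic RIRI. Leaving out replicate 1 of preconditioned sham (0.0506) or replicate 2 of normoxic sham (0.0503) ended it as well. Psmb10, which replaces Psmb7, had FPKM values of 10.3, 10.4 and 10.9 in normoxic sham and 19.2, 10 and 16.3 in normoxic RIRI kidneys, then 14.5, 12.6 and 15.01 in preconditioned sham and 22.3, 22.2 and 16.3 in preconditioned RIRI kidneys. Normoxic RIRI replicate 2 was level with the normoxic sham libraries while the others were higher. Psmb10 did not pass the test in normoxic injury, at 0.44 ± 0.19 (adjusted p = 0.0531), and was called at 0.70 without that library (6.89e-04). It was also called with the filter at FPKM 5 (0.0498) and without preconditioned RIRI replicate 3 (0.0439). In preconditioned mice it rose by 0.49 ± 0.19 (adjusted p = 0.0465), a call lost in 12 alternatives with adjusted p up to 0.138.

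Per partner, Psmb9 was 4.69% ± 0.95 of Psmb6 in normoxic sham and 1.495% ± 0.31 in normoxic RIRI kidneys, then 5.15% ± 1.54 in preconditioned sham and 2.67% ± 0.51 in preconditioned RIRI kidneys (SD, n = 3). Psmb8 was 5.52% ± 0.23, 3.15% ± 0.24, 7.39% ± 1.76 and 4.42% ± 1.54 of Psmb5 in the same order. Psmb10 was 6.81% ± 0.16, 8.66% ± 2.43, 9.42% ± 1.22 and 11.9% ± 1.03 of Psmb7. So the means of the first pair of ratios were lowest in normoxic RIRI and that of the Psmb10 ratio was not. Leukocyte markers were read beside these genes. The summed FPKM of 7 neutrophil markers was 2.18 to 14.8 in normoxic sham and 130.2 to 291 in normoxic RIRI kidneys, then 1.66 to 4.19 in preconditioned sham and 23.2 to 110.2 in preconditioned RIRI kidneys, and Ly6g was listed at 0 in all preconditioned sham libraries. The 7 macrophage and dendritic cell markers summed to 22.9 to 24.2, 38.1 to 38.3, 22.2 to 24.3 and 30.7 to 35.7 in the same group order. These did not move together. Of the 5 tested, 2 were called higher and 1 lower in normoxic injury, against 41.6% and 30.1% of all genes. Their log2 changes ran from -1.37 to 2.81 with a median of 0.0035. The 8 markers of T, NK and B cells, of which 0 reached the level for testing, summed to 3.21 to 4.09, 0.348 to 1.52, 2.17 to 3.64 and 0.719 to 2.65. The 5 podocyte and endothelial markers summed to 103 to 122, 128.5 to 152, 104 to 117 and 109.2 to 121, with 2 called higher and 2 lower in normoxic injury. The part of these cells in the Psmb8, Psmb9 and Psmb10 levels was not tested.

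**Figure D4:**
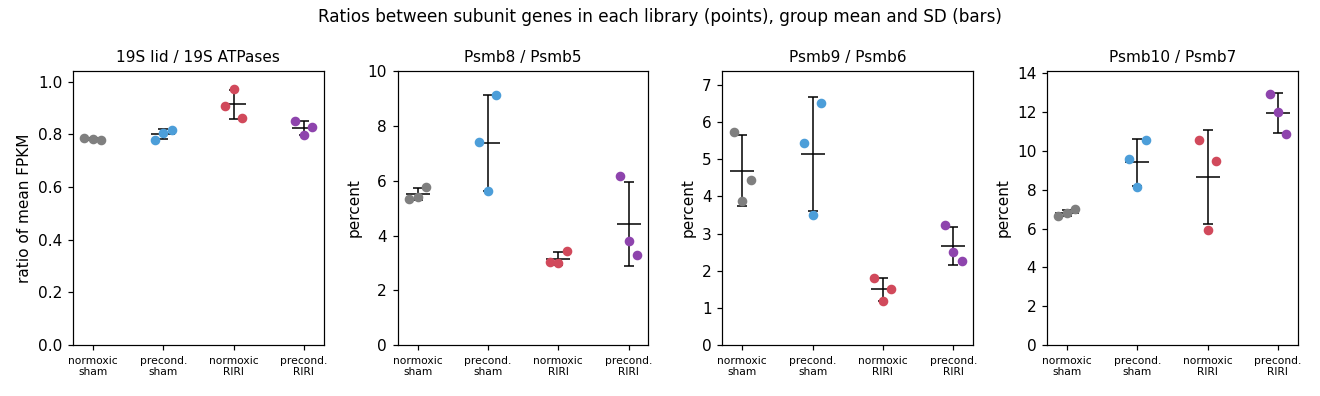
Ratios of FPKM between proteasome genes (y axes, from 0) in each library (points) of the 4 groups (x axes), with the mean and SD of 3 mice as bars. The panels give the mean of the lid genes over that of the ATPase genes, and each immunoproteasome gene as a percent of its constitutive partner. Normoxic RIRI kidneys are highest in the first panel (0.863 to 0.972) and lowest in the panel of Psmb9 (1.18 to 1.80%). In the panel of Psmb8 they have the lowest mean, but their range (2.99 to 3.43%) holds preconditioned RIRI replicate 3 (3.30%).

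Psmb9 and Psmb8 lie in the class II region of chromosome 17, 10864 bases apart with Tap1 between them, and are shown to compare their start regions for letters known from interferon-induced genes. The interferon gamma activated site TTCNNNGAA was in windows of 2 of the 43 members (4.65%), Psmb8 and Psmg1, against 8.13% of all genes. The interferon regulatory factor letters, GAAA then any 2 bases then GAAA, can share bases with the former. They were in windows of 3 members (6.98%), Psmb3, Psmd4 and Psmd9, against 3.46%. Psmb8, at chr17:34197945-34198194 (+ strand), has TTCNNNGAA 97 bases before the start, in capitals, and Psmb9, at chr17:34187331-34187580 (- strand), has none in its window.
Psmb8: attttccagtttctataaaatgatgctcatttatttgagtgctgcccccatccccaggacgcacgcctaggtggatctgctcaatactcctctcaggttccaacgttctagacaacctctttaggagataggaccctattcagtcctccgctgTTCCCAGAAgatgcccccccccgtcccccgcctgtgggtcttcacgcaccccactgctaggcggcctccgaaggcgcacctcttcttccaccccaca
Psmb9: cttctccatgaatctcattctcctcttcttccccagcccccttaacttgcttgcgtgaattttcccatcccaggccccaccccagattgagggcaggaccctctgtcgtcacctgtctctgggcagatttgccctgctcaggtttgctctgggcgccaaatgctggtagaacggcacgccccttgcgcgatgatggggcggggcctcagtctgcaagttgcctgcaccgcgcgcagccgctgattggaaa

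Of the proteasome regulators outside the family, Nfe2l1, the factor that restores proteasome genes when degradation fails, had FPKM values of 39.8, 41.1 and 39.4 in normoxic sham and 52.3, 60.8 and 57.8 in normoxic RIRI kidneys, then 45.8, 44.9 and 47.5 in preconditioned sham and 44.01, 47.1 and 47.4 in preconditioned RIRI kidneys. Normoxic RIRI libraries were highest and preconditioned sham libraries lay above normoxic sham libraries, the order seen for Psmd3. The sham groups differed by 0.20 ± 0.07 (adjusted p = 0.245), which was not called, and 23.0% of all genes separated upward there. Between the injured groups Nfe2l1 differed by -0.30 ± 0.07 (adjusted p = 0.0053). Nfe2l1 rose by 0.49 ± 0.07 (adjusted p = 4.21e-05) in normoxic injury and differed by 0.00 ± 0.07 (adjusted p = 0.973) in preconditioned mice, with an interaction of -0.49 ± 0.10 (adjusted p = 0.00514). Nfe2l2, the oxidative stress factor, had FPKM values of 22.5, 23.4 and 23 in normoxic sham and 36.9, 42.02 and 48.8 in normoxic RIRI kidneys, then 25.6, 21.8 and 22.9 in preconditioned sham and 34.8, 31.1 and 41.96 in preconditioned RIRI kidneys. Both injured groups were above the sham groups, and Nfe2l2 rose by 0.85 ± 0.12 (adjusted p = 4.11e-05) in normoxic and by 0.59 ± 0.12 (adjusted p = 0.00134) in preconditioned mice. Between the injured groups it differed by -0.24 ± 0.12 (adjusted p = 0.124).

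Irf1, an interferon-induced transcription factor that acts on immunoproteasome genes, had FPKM values of 5.56, 5.71 and 5.87 in normoxic sham and 6.86, 5.35 and 6.52 in normoxic RIRI kidneys, then 5.49, 5.54 and 7.31 in preconditioned sham and 9.03, 8.28 and 8.20 in preconditioned RIRI kidneys. Preconditioned RIRI libraries were the highest. Irf1 was higher there than in normoxic RIRI kidneys by 0.40 ± 0.11 (adjusted p = 0.0116), with a normoxic injury change of 0.10 ± 0.11 (adjusted p = 0.397). In preconditioned mice it rose with injury by 0.43 ± 0.11 (adjusted p = 0.0055). Its interaction of 0.32 ± 0.15 was not called (adjusted p = 0.139).

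Genes that work with the proteasome changed as well. Of 10 proteasome partners with other symbols, 9 rose in normoxic injury and 4 were lower in preconditioned than in normoxic RIRI kidneys, with 0 changes in the other directions. Of all genes 41.6% were higher in the former comparison and 17.4% lower in the latter, which are the shares to set beside the counts of these lists. Usp14, which trims ubiquitin at the proteasome, had FPKM values of 7.28, 7.90 and 7.45 in normoxic sham and 17.9, 17.4 and 18.2 in normoxic RIRI kidneys, then 7.66, 6.68 and 6.68 in preconditioned sham and 12.5, 11.8 and 10.8 in preconditioned RIRI kidneys. Its injured groups did not overlap, and it rose by 1.14 ± 0.07 (adjusted p = 1.02e-07) and differed between them by -0.57 ± 0.07 (adjusted p = 1.98e-04). Zfand2a, a stress-induced proteasome binder, rose by 1.99 ± 0.16 (adjusted p = 5.92e-07) and differed between the injured groups by -1.23 ± 0.16 (adjusted p = 2.19e-04). Adrm1, a ubiquitin receptor of the 19S base named after its values were seen, went from 75.3 ± 2.56 to 145 ± 13.7 FPKM in normoxic and from 71.04 ± 4.68 to 101 ± 6.17 in preconditioned mice (SD, n = 3). Its changes were 0.93 ± 0.08 (adjusted p = 1.12e-06) with normoxic injury and -0.52 ± 0.08 (adjusted p = 6.81e-04) between the injured groups.

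Of 12 shuttle and segregase genes, which carry ubiquitin-tagged proteins to the proteasome, 9 rose in normoxic injury and 5 were lower in preconditioned than in normoxic RIRI kidneys. Sqstm1, an adaptor that also serves autophagy, had FPKM values of 123, 121 and 125 in normoxic sham and 608, 591 and 627 in normoxic RIRI kidneys, then 109, 107 and 97.4 in preconditioned sham and 255, 265 and 330.2 in preconditioned RIRI kidneys. The groups separated widely, and it rose by 2.30 ± 0.09 (adjusted p = 3.06e-09) and differed between the injured groups by -1.11 ± 0.09 (adjusted p = 1.40e-05). Nsfl1c, a cofactor of the p97 segregase, rose by 0.83 ± 0.07 (adjusted p = 9.33e-07) and differed by -0.36 ± 0.07 (adjusted p = 0.00251). Of 6 genes for ubiquitin and its activating enzymes, 4 rose in normoxic injury, among them Uba1 by 0.52 ± 0.06 (adjusted p = 8.87e-06) and Uba6 by 0.65 ± 0.10 (adjusted p = 6.56e-05), and 2 were lower in preconditioned than in normoxic RIRI kidneys.

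The 9 genes of peptide loading onto MHC class I, the destination of many proteasome products, had 4 higher and 2 lower in normoxic injury, against 41.6% and 30.1% of all genes. The 2 were Calr and Pdia3, chaperones of the endoplasmic reticulum that fold many other proteins as well. Calr went from 492 ± 8.90 to 259 ± 69.4 FPKM (SD, n = 3) and Pdia3 from 192 ± 9.17 to 109 ± 21.9, with changes of -0.96 ± 0.16 (adjusted p = 1.54e-04) and -0.83 ± 0.13 (adjusted p = 1.12e-04). In preconditioned RIRI kidneys 4 of the 9 were higher than in normoxic RIRI kidneys and 0 lower, against 24.7% and 17.4% of all genes, among them Calr by 0.74 ± 0.16 (adjusted p = 0.00321) and Pdia3 by 0.42 ± 0.13 (adjusted p = 0.0226).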

How the data were processed

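Total RNA of 12 kidneys was sequenced on a DNBSEQ-T7, per the labels. The authors deposited 1 table of FPKM for all libraries. The submitters' processing notes list mm10, HTSeq and DESeq2 with no version or role. The aligner and annotation were not given by any source used here. Each gene's FPKM steps gave whole reads for 25545 of 25553 genes at a tolerance of 1e-06, used for depth and limma voom, an alternative added after the data were seen.

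FPKM is not a count, so log2(FPKM + 1) was fitted with limma 3.58.1 (mean-variance trend, R 4.3.3) as 4 group means over all 12 libraries. Only genes that reached an FPKM of 1 in 3 or more libraries were kept. Adjusted p values are Benjamini-Hochberg over all 12357 genes. The fit was tested on simulated data. Far fewer genes changed there than were called in normoxic injury, so its results are not carried over to these data. Alternatives were a pseudocount of 0.1, no filter, FPKM of at least 5, median-ratio rescaling, quantile normalization, only the groups compared, no trend, the replicate number as a block, and each library left out.

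Values per library are given for the cutting subunits, activators and inhibitor, the called gene with the largest change in each other role, and the 3 smallest interaction p values. Of other genes, Nfe2l1, Nfe2l2, Irf1 and the pair of smallest p in each related list are named, and 1 gene of this rule is not reported here. Members, lists and this rule were chosen with earlier results of these data known, and further genes were named after their values were seen. Same-numbered libraries did not deviate together: over 18 pairs the correlation ran from -0.248 to 0.165, so the numbers were not taken as pairs.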

Additional observations from a re-analysis of the deposited data

Results flagged for a closer look

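For 7 proteasome genes (14.3% of those tested) limma's interaction test called the injury change lower in preconditioned than in normoxic mice, and for 0 higher. Of all genes 12.6% were called lower and 11.3% higher. At an unadjusted p under 0.05 the shares were 24.5% of the members and 38% of all genes. In all 7 the change was smaller in preconditioned mice. Psmd3 had log2 changes of 0.39 with injury in normoxic and -0.03 in preconditioned mice, an interaction of -0.42 ± 0.09 (SE, adjusted p = 0.0083). Psmd11 changed by 1.21 with injury in normoxic and by 0.79 in preconditioned mice, an interaction of -0.43 ± 0.10 (SE, adjusted p = 0.0128). Psmd1 changed by 0.81 with injury in normoxic and by 0.44 in preconditioned mice, an interaction of -0.38 ± 0.10 (SE, adjusted p = 0.0199). Psmd2 changed by 0.83 with injury in normoxic and by 0.48 in preconditioned mice, an interaction of -0.35 ± 0.10 (SE, adjusted p = 0.0211). Psmd8 changed by 0.84 with injury in normoxic and by 0.43 in preconditioned mice, an interaction of -0.41 ± 0.11 (SE, adjusted p = 0.0219). Psmd7 changed by 0.88 with injury in normoxic and by 0.58 in preconditioned mice, an interaction of -0.30 ± 0.09 (SE, adjusted p = 0.0281). Psma5 changed by 0.96 with injury in normoxic and by 0.60 in preconditioned mice, an interaction of -0.36 ± 0.11 (SE, adjusted p = 0.0368). Psmd3 and Psmd11 were called in every alternative, and the count of 7 was 3 without preconditioned sham replicate 1 or without normoxic sham replicate 1. The interaction of Psmd7 lost its call when any of 6 libraries was left out (adjusted p up to 0.0772), and that of Psmd8 under median-ratio rescaling (0.0516) and without preconditioned sham replicate 2 (0.0545) or normoxic sham replicate 1 (0.0506).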

How the results depend on the processing

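No called member reversed its direction in the 21 alternatives. Over 245 pairs of a member and a comparison, a call was lost in 150 instances and gained in 64. The members called higher ranged from 34 to 40 in normoxic injury and from 29 to 38 in preconditioned injury. Calls lower in normoxic injury numbered 2, 3 under quantile normalization, and 1 without filter or with only the groups compared, with 1 to 2 when a library was left out. Between the injured groups, 4 were higher, 2 under median-ratio rescaling, 2 with only the groups compared, and 1 to 7 when a library was left out, while 13 were lower, 23 under median-ratio rescaling and 6 with only the groups compared. Between the sham groups 0 were higher, and 3 with only these groups compared, where the share of all genes called was not counted. In preconditioned injury 0 were lower, 2 under median-ratio rescaling, 2 under quantile normalization, 1 with the replicate block and 0 to 1 when a library was left out. The interaction called 0 higher, but 1 with the FPKM 5 filter, under either rescaling or with limma voom, and 0 to 1 when a library was left out; it called 7 lower, and 3 to 9 when a library was left out. The replicate block, used although the numbers do not pair the libraries, changed no count of calls by over 1.5 times apart from that 1, and 5 of 12 libraries correlated best with their own number. Under median-ratio rescaling the log2 ratios of summed FPKM, normoxic RIRI over normoxic sham, moved from 0.50 to 0.42 for the alpha ring, from 0.40 to 0.32 for the constitutive beta ring, from 0.44 to 0.35 for the ATPases and from 0.66 to 0.58 for the lid. Those of preconditioned over normoxic RIRI moved from -0.13 to -0.22, from -0.01 to -0.11, from -0.10 to -0.19 and from -0.25 to -0.35. The cause was not tested. With 3 mice a group, and with a library left out 2 assumed to vary like the others, small differences may have been missed.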
